A study of Mus musculus with 6 samples.

Results

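Titin, nebulin and other very long sarcomere-associated transcripts were followed in RNA-seq libraries of mouse tibialis anterior (TA) muscle. The 8 genes, Ttn, Neb, Nebl, Speg, Flnc, Xirp1, Xirp2 and Cmya5, were taken by symbol from a count table of 55401 gene identifiers. All 8 passed the filter on low counts, which kept 17222 genes.

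The sarcomere is the contractile unit of striated muscle, bounded by Z-discs that anchor actin thin filaments and centred on the M-band that links myosin thick filaments. Titin spans from the Z-disc to the M-band as a molecular spring, nebulin runs along the thin filament, and the other proteins studied here tie filaments to one another, to membranes or to signalling kinases. RBM20 is an RNA-binding protein of striated muscle that represses the inclusion of many titin exons, so it sets which titin isoform is made, whereas a count per gene adds all isoforms together.

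Both groups were C57BL/6 mice with the genotype HSA-MCM-Bmal1-/- (iMSBmal1-/-), in which tamoxifen activates a Cre driven by the human skeletal actin promoter and deletes the clock gene Bmal1 in skeletal muscle fibres, leaving other cells of the muscle with the gene. Mice aged 12 to 16 weeks in the labels were given tamoxifen on 5 days, 2 mg on each. Adeno-associated virus (AAV) was injected throughout the TA after another 4 weeks. Collection followed the virus by 4 weeks and tamoxifen by 8 weeks. The AAV-GFP group (n = 3) received a vector for green fluorescent protein and the AAV-RBM20 group (n = 3) received mouse Rbm20 cDNA under the ubiquitous CMV promoter. In the study's methods the doses of the vectors differ, RBM20 being the higher, so dose and transgene cannot be told apart, and no group with intact Bmal1 or without virus was analysed here. The comparison asks whether raising RBM20 in clock-deficient muscle goes with a change in the abundance of the transcripts of these giant proteins.

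Total counts were 41400132 to 54226618 per library. Rbm20 was 166 ± 3.20 CPM (counts scaled to a common library size by the trimmed mean of M-values, TMM; mean ± SD) in AAV-GFP and 484 ± 71.0 CPM in AAV-RBM20. Rbm20 was higher in all AAV-RBM20 libraries, by 1.54 ± 0.149 (log2 fold change ± SE), with an adjusted p of 0.121 (edgeR, Benjamini-Hochberg) that fell to 0.0107 with the replicate number as a block. Bmal1 (Arntl) was 35.0 ± 3.63 CPM in AAV-GFP and 26.3 ± 1.63 CPM in AAV-RBM20, in tissue whose other cells keep the gene. Its ranges did not overlap and were lower in AAV-RBM20, as for 9.04% of all genes. The log2 fold change was -0.41 ± 0.128, with an adjusted p of 0.618, and 0.109 with the block (edgeR, Benjamini-Hochberg). Which cells gave the Arntl reads, and from which of its exons they came, was not tested. All 12 fast limb muscle markers were measured, with a summed level of 86440 to 142400 CPM, while 4 of 7 cardiac markers passed the filter and summed to 2.97 to 10.4 CPM. Between groups, 2 of the 12 fast markers had positive and 10 negative log2 fold changes (AAV-RBM20 over AAV-GFP, median -0.37). In edgeR 0 were higher and 3 lower at an unadjusted p under 0.05, beside 7.9% of all genes, and 0 passed by adjusted p. The libraries numbered 3 stood apart in both groups, with 12.5% and 11.4% of counts from mitochondrial genes against 6.41% to 7.67% in the other 4. The fold changes of the 8 genes are therefore given with and without them.

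None of the giant sarcomere genes passed a test of AAV-RBM20 against AAV-GFP. Log2 fold changes (AAV-RBM20 over AAV-GFP) lay between -0.20 for Xirp2 and 0.12 for Xirp1, 2 positive and 6 negative, with a median of -0.026 beside 0.009 over all genes tested. The larger differences lay between libraries of one group. Ttn, Neb, Speg, Flnc and Xirp1 were lowest in library 3 of both groups, Xirp2 was highest there, Cmya5 was lowest there by a small margin, and Nebl was in the middle of its group.

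Of the 8 genes, 0 had an adjusted p under 0.05 (edgeR, Benjamini-Hochberg; range 0.771 to 0.999), where 0% of all genes were called. This fit did not call the delivered gene Rbm20 either. At an unadjusted p under 0.05, 0 of 8 passed against 7.9% of all genes, 702 higher and 658 lower. The CPM ranges of the groups overlapped for all 8, whereas ranges were apart with AAV-RBM20 higher for 7.71% of all genes and lower for 9.04%. With the replicate block, 0 of 8 passed either threshold, beside 0.145% of all genes by adjusted p and 18.8% by unadjusted p. DESeq2 likewise called 0 of 8 (lowest adjusted p 0.82) and 0.436% of the genes to which it gave an adjusted p. Without the libraries numbered 3, edgeR called 0 of 8 and 4% of all genes. Both of these fits called Rbm20, at an adjusted p of 1.38e-17 in DESeq2 and 2.28e-06 in edgeR without those libraries. The two-sided exact permutation p of log2 CPM was 0.3 to 1 over the 8 genes, in a design of 20 assignments that cannot go below 0.1.

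**Figure D1:**
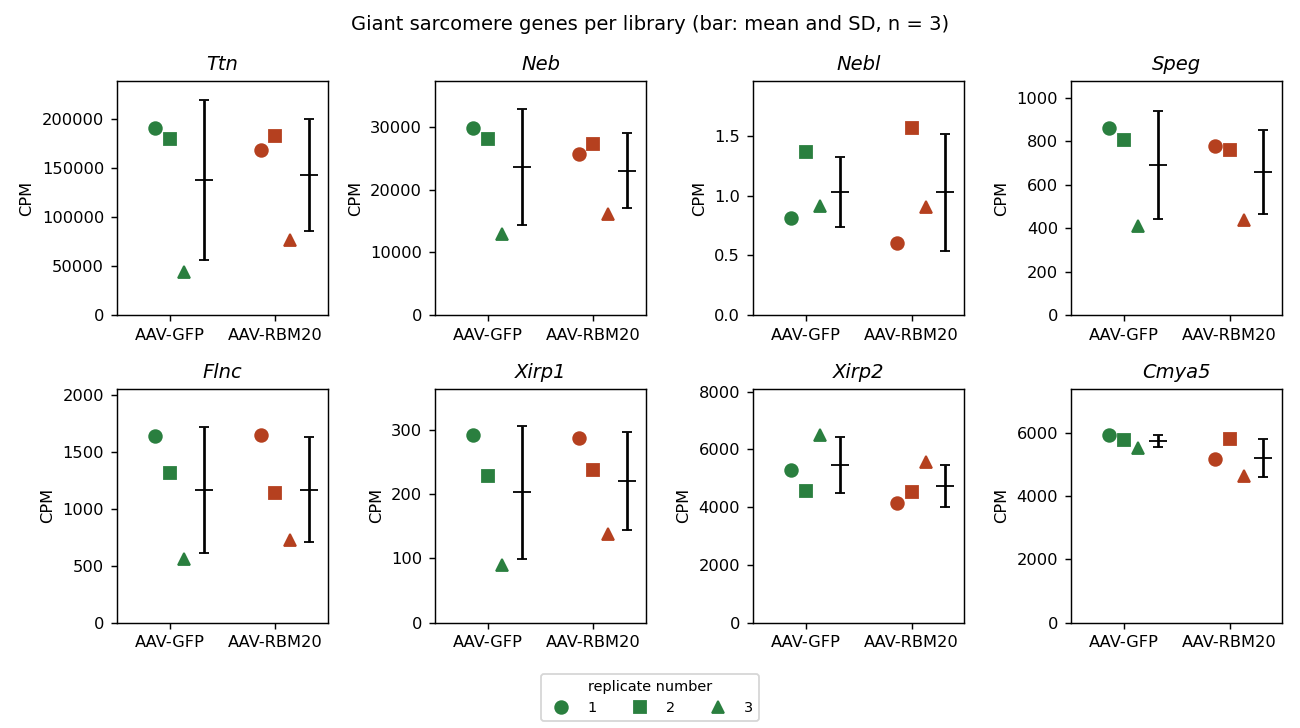
CPM of each giant sarcomere gene in the 6 libraries (y axes from 0, one scale per gene), coloured by group and shaped by replicate number, with the mean and SD of each group (n = 3) as a bar. The triangle, replicate 3, is the lowest point of both groups for Ttn, Neb, Speg, Flnc, Xirp1 and, by a small margin, Cmya5, and the highest for Xirp2.

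Titin, the spring of the sarcomere, took by far the most reads of these genes. Ttn (ENSMUSG00000051747, chr2:76703980-76982547, minus strand, GRCm38, 345 merged exons) took the largest number of reads of any gene in 5 of the 6 libraries, the exception being AAV-GFP 3. Its CPM was 191400, 179500 and 44300 in AAV-GFP 1, 2 and 3, and 168400, 183500 and 77120 in AAV-RBM20 1, 2 and 3. In shares of all counts this was 17.3%, 17.1% and 4.48% for AAV-GFP, and 16.9%, 17.8% and 9.05% for AAV-RBM20. Libraries 1 and 2 of the groups overlapped, and library 3 was far below them in each group. The means were 138400 ± 81700 and 143000 ± 57580 CPM, a log2 fold change of 0.048 ± 0.55 with a 95% interval of 0.429-fold to 2.49-fold. Without the libraries numbered 3, only libraries 1 and 2 of each group were left. The log2 fold change was then -0.068 ± 0.10 and the interval narrowed to 0.818-fold to 1.11-fold. The sign of the Ttn value thus turned with the libraries numbered 3. Neither interval is a limit of detection, and with all 6 libraries totals of Ttn reads from 0.429-fold to 2.49-fold lay within it. The counts do not show which titin exons were included.

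Nebulin, the giant protein of the thin filament, went with titin from library to library. Neb (ENSMUSG00000026950, chr2:52136647-52378474, minus strand, 166 merged exons) was at 29840, 28050 and 12950 CPM in AAV-GFP and 25630, 27220 and 16130 CPM in AAV-RBM20. Again library 3 was lowest in both groups and the groups overlapped. The log2 fold change was -0.038 ± 0.348 with all libraries, from 0.558-fold to 1.70-fold at 95%, and -0.12 ± 0.088 without the libraries numbered 3. Nebulette, the short cardiac relative of nebulin whose gene also encodes a more widely expressed LIM-domain product, was barely detected. Nebl (ENSMUSG00000053702, chr2:17343909-17731464, minus strand) had 33, 57 and 48 reads in AAV-GFP and 33, 63 and 44 reads in AAV-RBM20. Its mean of 1.03 ± 0.295 CPM against 1.03 ± 0.492 CPM left an interval of 0.513-fold to 1.91-fold, and the log2 fold change of -0.014 ± 0.411 became -0.028 ± 0.481 without the libraries numbered 3. Among cardiac markers, Myh6 was at 1.79 to 8.39 CPM, above Nebl, and Nppa, Nppb and Myl7 were under the filter.

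Speg and Flnc also had their lowest values in library 3. Speg (ENSMUSG00000026207, chr1:75375297-75432320, plus strand) encodes a kinase of the myosin light chain kinase family found at the junctions of sarcoplasmic reticulum and T-tubules. Its CPM was 861, 806 and 408 for AAV-GFP, and 778, 757 and 436 for AAV-RBM20. Flnc (ENSMUSG00000068699, chr6:29433256-29461883, plus strand), whose product cross-links actin at the Z-disc and at costamere membranes, was at 1637, 1316 and 558 CPM in AAV-GFP and 1646, 1140 and 724 CPM in AAV-RBM20. For both genes the 2 groups covered almost the same range. Log2 fold changes were -0.073 ± 0.322 for Speg and -0.001 ± 0.417 for Flnc, and without the libraries numbered 3 they were -0.11 ± 0.069 and -0.077 ± 0.244.

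The Xin-repeat proteins bind and bundle actin, and their genes moved in opposite directions across libraries. Xirp1 (ENSMUSG00000079243, chr9:120013755-120023598, minus strand), known from regions of fibre repair and tendon attachment, was at 292, 228 and 89.4 CPM in AAV-GFP and 288, 238 and 138 CPM in AAV-RBM20. Xirp2 (ENSMUSG00000027022, chr2:67446002-67526614, plus strand) was at 5277, 4565 and 6482 CPM in AAV-GFP and 4134, 4516 and 5549 CPM in AAV-RBM20. Library 3 was thus the lowest of its group for Xirp1 and the highest for Xirp2. The log2 fold change of Xirp1 was 0.12 ± 0.423, and 0.024 ± 0.156 without the libraries numbered 3. That of Xirp2 was -0.20 ± 0.199, the most negative of the 8, and -0.18 ± 0.090 without those libraries. Xirp2 was lower in AAV-RBM20 in each pair of same-numbered libraries, by 0.35, 0.015 and 0.22 on the log2 scale, yet its adjusted p was 0.771 (edgeR, Benjamini-Hochberg) and its groups overlapped.

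Cmya5 encodes myospryn, a scaffold that binds desmin and protein kinase A at the costamere. Cmya5 (ENSMUSG00000047419, chr13:93040713-93144724, minus strand) was at 5914, 5775 and 5527 CPM in AAV-GFP and 5163, 5808 and 4637 CPM in AAV-RBM20. It was the steadiest member, with a coefficient of variation of 3.42% in AAV-GFP and 11.3% in AAV-RBM20, against 59.0% and 40.3% for Ttn. The log2 fold change was -0.14 ± 0.16, or 0.702-fold to 1.17-fold at 95%, and -0.084 ± 0.084 without the libraries numbered 3. An antisense gene, A630019I02Rik, covers 20.7% of the Cmya5 exon bases. The strand setting of the read counting was not stated, so reads of this stretch are uncertain. For the other members such overlap came to at most 1.4% of exon bases.

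**Figure D2:**
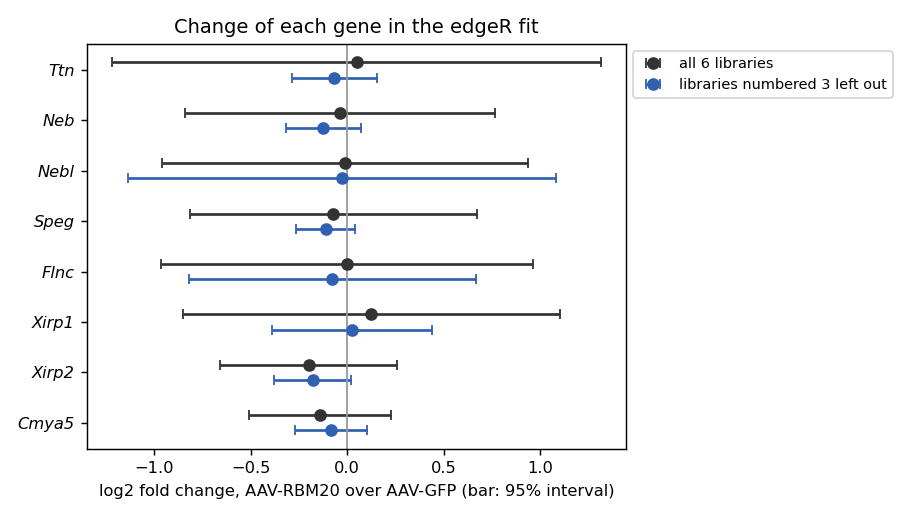
Log2 fold change of each gene, AAV-RBM20 over AAV-GFP, from edgeR with 95% intervals, for all 6 libraries and with the libraries numbered 3 left out. Every interval includes 0, and for Ttn it narrows from 0.429-fold to 2.49-fold to 0.818-fold to 1.11-fold when those libraries are left out.

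Levels were compared between genes per kilobase of merged exons, a length that adds all annotated exons of a gene and so understates genes with many alternative exons such as Ttn (116825 bases merged, 106824 in the longest transcript). In mean CPM per kb, AAV-GFP first, the order was Ttn (1185 ± 699 and 1224 ± 493), Neb (888 ± 349 and 865 ± 225), Cmya5 (484 ± 16.6 and 439 ± 49.5) and Xirp2 (454 ± 80.9 and 395 ± 61.1). Below them came Flnc (125 ± 58.9 and 124 ± 49.1), Speg (54.3 ± 19.4 and 51.6 ± 15.0), Xirp1 (34.8 ± 17.7 and 37.9 ± 13.0) and Nebl (0.068 ± 0.019 and 0.067 ± 0.032). Ttn exceeded Neb in 5 of 6 libraries and Cmya5 exceeded Xirp2 in 4 of 6, with overlapping ranges in both groups. Neither order held in every library. Within a library, Ttn lay at 0.779 to 1.53 times Neb, and Cmya5 at 0.845 to 1.3 times Xirp2. Neb with Cmya5, Flnc with Speg, and Speg with Xirp1 kept their order in 6 of 6 libraries although their ranges overlapped in at least 1 group. Xirp2 lay 1.97 to 9.11 times above Flnc, and Xirp1 256 to 1241 times above Nebl, without overlap in either group.

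In AAV-GFP 3 the order among the leading genes was another one. Xirp2 led with 541 CPM per kb, followed by Neb at 487, Cmya5 at 466 and Ttn at 379. In AAV-RBM20 3 Ttn was still first at 660 CPM per kb, with Neb at 607, Xirp2 at 463 and Cmya5 at 391.

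**Figure D3:**
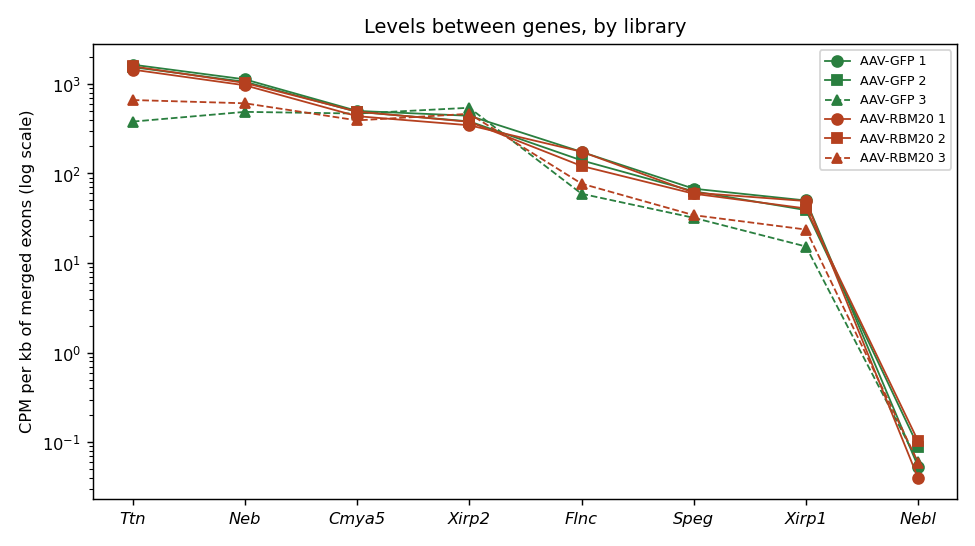
CPM per kb of merged exons on a log scale, genes ordered by mean, 1 line per library, dashed for the libraries numbered 3. The dashed lines run below the others for Ttn and Neb, reach or pass them at Xirp2, and lie below them again for Flnc, Speg and Xirp1.

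A ratio of read counts within a library does not depend on library size or scaling. For every 100 Ttn reads there were 15.6, 15.6 and 29.2 Neb reads in AAV-GFP 1, 2 and 3 and 15.2, 14.8 and 20.9 in AAV-RBM20 1, 2 and 3. Xirp2 reads per 100 Ttn reads were 2.76, 2.54 and 14.6 for AAV-GFP, and 2.45, 2.46 and 7.20 for AAV-RBM20. Cmya5 reads per 100 Ttn reads were 3.09, 3.22 and 12.5 for AAV-GFP, and 3.07, 3.17 and 6.01 for AAV-RBM20. In libraries 1 and 2 these proportions were nearly the same in both groups, and in library 3 each of these genes had more reads per Ttn read. Speg ranged from 0.413 to 0.92, Flnc from 0.621 to 1.26 and Xirp1 from 0.127 to 0.202 reads per 100 Ttn reads. No ratio to Ttn passed a test between groups among the other 7 genes (two-sided exact permutation p 0.5 to 1), and all group ranges overlapped.

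Against the mean of libraries 1 and 2, library 3 shifted by -2.07 in AAV-GFP and -1.19 in AAV-RBM20 for Ttn (log2 CPM). In the same order the shifts were -1.53 and -0.92 for Xirp1, -1.39 and -0.92 for Flnc, -1.16 and -0.71 for Neb, and -1.03 and -0.82 for Speg. Nebl shifted by -0.20 and -0.11 and Cmya5 by -0.081 and -0.24, while Xirp2 shifted by 0.40 and 0.36. In all, 7 of 8 genes were lower in library 3 of both groups, as were 33.7% of all genes tested. The median shift of the 8 was -1.10 in AAV-GFP and -0.76 in AAV-RBM20, against 0.04 and 0.008 over all genes.

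Over the 6 libraries, log2 CPM of Ttn, Neb, Speg, Flnc and Xirp1 correlated with one another at Pearson r of 0.94 to 0.99. Ttn correlated with Xirp2 at -0.85, with Cmya5 at 0.45 and with Nebl at 0.18. These values describe 6 libraries of which the pair numbered 3 carries most of the spread. The 5 genes most like Ttn, among 3483 other tested genes whose log2 CPM averaged 5 or more, were the ubiquitin ligase gene Huwe1 (r = 0.9995), the splicing regulator gene Sfswap (0.9987), Rbm33 (0.9984) and the nuclear speckle protein genes Srrm1 (0.9982) and Srrm2 (0.9979). A total of 489 of the 3483 exceeded 0.9.

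**Figure D4:**
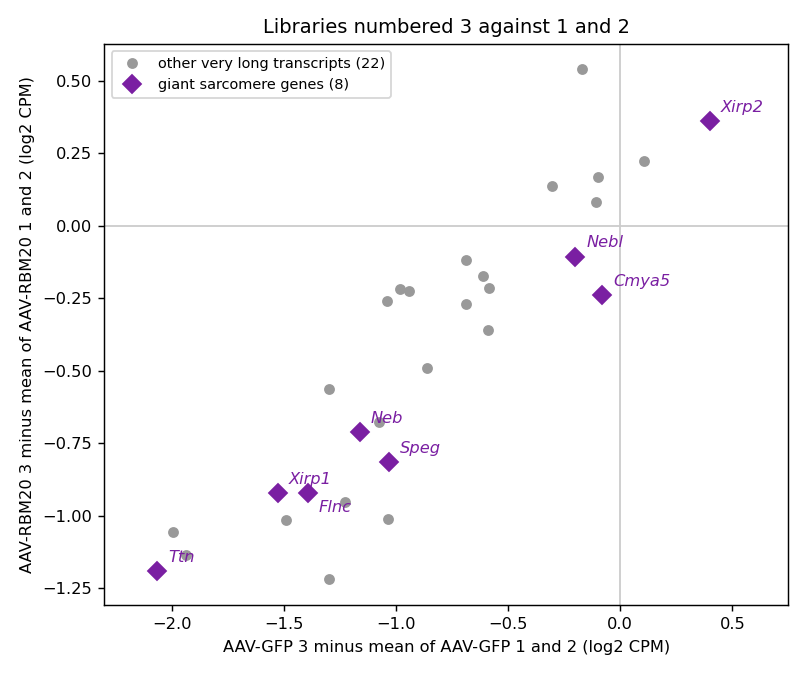
Log2 CPM of library 3 minus the mean of libraries 1 and 2, AAV-GFP on the x axis and AAV-RBM20 on the y axis, for the 8 giant sarcomere genes and 22 other very long transcripts. Ttn lies at -2.07 and -1.19 at the lower left and Xirp2 at 0.40 and 0.36 at the upper right.

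Transcript length, base composition and exon layout varied among the members. Over all genes tested, the median library 3 shift went from 0.18 (AAV-GFP) and 0.074 (AAV-RBM20) for genes with under 2 kb of merged exons to -0.47 and -0.054 for 110 genes over 20 kb. Among genes with over 5 kb of exons, the median shift was 0.34 and 0.26 at a GC content below 42% and -0.50 and -0.40 at 58% or more. The longest transcript had a GC content of 62.6% for Speg, 58.4% for Flnc, 57% for Xirp1, 47.4% for Ttn and 47.0% for Neb, the 5 that were low in library 3. It was 48.8% for Cmya5, 42.2% for Xirp2 and 40.1% for Nebl. A single exon made up 77.3% of the longest Xirp2 transcript and 78.6% of that of Cmya5, compared with 16.0% for Ttn and 7.23% for Neb. The part of length, GC content and exon layout in the library 3 shift was not tested.

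Markers of some other cell types moved with the same libraries. Over all genes tested, 37% were higher and 33.7% lower in library 3 of both groups. Of 12 macrophage markers, 12 were higher in library 3 of both groups, with a summed level of 38.6 to 128 CPM in AAV-GFP and 81.8 to 189 CPM in AAV-RBM20. Between groups, 11 of these 12 had a positive log2 fold change, with a median of 0.80. Of them 2 passed an unadjusted p under 0.05, beside 7.9% of all genes, and 0 passed by adjusted p, beside 0%. With the replicate block 1 passed by adjusted p, beside 0.145% of all genes. This was Ptprc, the leukocyte antigen CD45, at an adjusted p of 0.0478 (edgeR, Benjamini-Hochberg). Of 8 endothelial markers, 7 were lower there, summed at 208 to 505 and 326 to 477 CPM. Of 8 markers of fibro-adipogenic progenitors 5 were higher there, summed at 519 to 1089 and 877 to 1137 CPM. All 5 adipocyte markers tested were higher there, summed at 61.5 to 85.0 and 55.7 to 79.4 CPM, although most of that was Fabp4 and the defining marker Adipoq was at 0 CPM in AAV-GFP 1 and AAV-RBM20 1. Smooth muscle and pericyte markers were split, 3 of 6 lower and 3 higher in library 3 of both groups, and 3 of 6 Schwann cell markers were lower and 0 higher. Between groups, of 14 regeneration and denervation genes tested, 6 were higher and 1 lower in AAV-RBM20 at an unadjusted p under 0.05, beside 7.9% of all genes. By adjusted p, edgeR called 0 without the replicate block and 1, higher, with it, beside 0% and 0.145% of all genes. That gene was Runx1, a transcription factor of denervated and regenerating fibres (adjusted p 0.257 without and 0.0271 with the block; edgeR, Benjamini-Hochberg). Runx1 was at 4.77, 6.01 and 5.95 CPM for AAV-GFP, and 13.8, 12.4 and 13.6 CPM for AAV-RBM20. The 12 fast limb muscle markers summed to 142400, 132300 and 135400 CPM in AAV-GFP 1, 2 and 3. In AAV-RBM20 1, 2 and 3 they summed to 121500, 132100 and 86440 CPM. Of these markers, 3 were lower and 2 higher in library 3 of both groups. In bulk tissue, fewer fibres and less RNA per fibre cannot be told apart. The part of fibres and of the other cell types in the levels of the giant sarcomere genes was not tested.

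Other sarcomere genes were read from lists set up for comparison. Of 24 Z-disc and thin filament genes, 7 had positive and 17 negative log2 fold changes (median -0.11, range -0.56 to 0.90), and 0 passed the adjusted threshold. The largest positive values were 0.90 ± 0.351 for Lmod2, the thin filament elongation factor leiomodin, and 0.55 ± 0.350 for Actn2, the Z-disc cross-linker alpha-actinin of all striated fibres. The most negative were -0.56 ± 0.206 for Actn3, the alpha-actinin of fast fibres, and -0.35 ± 0.200 for Tmod4, a tropomodulin that caps thin filaments. At an unadjusted p under 0.05, 1 gene was higher (Lmod2) and 1 lower (Actn3), beside 7.9% of all genes.

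Of 20 M-band and thick filament genes, 10 were positive and 10 negative, with a median of 0.019, and 0 passed the adjusted threshold of edgeR while 3 were higher and 3 lower at an unadjusted p under 0.05, beside 7.9% of all genes. At the ends of the list were Mybph (1.20 ± 0.799), a myosin-binding protein, Ankrd1 (1.13 ± 0.435), an ankyrin-repeat protein that binds titin, and the muscle ring-finger genes Trim54 (-0.54 ± 0.145) and Trim63 (-0.50 ± 0.167). The product of Trim63 binds titin near the M-band. Trim54 was at 174, 166 and 221 CPM in AAV-GFP and 127, 132 and 126 CPM in AAV-RBM20, ranges that did not overlap. Its adjusted p was 0.618, and 0.105 with the replicate block (edgeR, Benjamini-Hochberg). Library 3 of both groups was lower for 8 of the 24 and 8 of the 20 genes, beside the 33.7% of all genes.

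The 22 other very long transcripts were mostly low in library 3 as well. Of them, 17 were lower there in both groups, with a median shift of -0.90 in AAV-GFP and -0.26 in AAV-RBM20, beside 33.7% of all genes. The share was 46.5% of 1265 genes with 10 to 20 kb of exons and 52.7% of the 110 genes over 20 kb. The list spans both bins, from Hspg2 (14.3 kb) to Dst (41.2 kb), and the bins include its genes. Between groups 20 were positive and 2 negative, with a median of 0.098, and 0 passed an unadjusted p under 0.05, beside 7.9% of all genes. The largest log2 fold changes were those of Macf1 (0.34 ± 0.262), a linker of actin and microtubules, and Ahnak (0.29 ± 0.130), a giant membrane scaffold. The 2 negative ones were Ubr4 (-0.025 ± 0.418), a ubiquitin ligase, and Kmt2d (-0.014 ± 0.503), a histone methyltransferase.

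Promoter sequences are shown for genes that differed in the library 3 pattern, Ttn and Speg being low there and Xirp2 high, and that held a match to the MEF2 site, the motif of a family of muscle transcription factors. RefSeq (GRCm38.p6) gave 13 windows, from 250 bases before to 50 after a transcript start, for 6 of the 8 genes, Ttn, Nebl, Speg, Flnc, Xirp2 and Cmya5. Windows were searched on both strands for the MEF2 site, the CArG box, the TATA box TATAAA, the E-box CANNTG and, contained in it, the form CACGTG that BMAL1 and CLOCK bind. A MEF2 site was in 3 of the 13 windows and in 3.19% of all 32851 mouse windows, and an E-box was in 10 of 13 and in 72.3%. CACGTG was in 1 window, of an internal Nebl start, and in 7.15% of all. Capitals mark the MEF2 match, which begins at -166 in Ttn (chr2:76982498-76982797, minus strand), at -51 in Speg (chr1:75375047-75375346, plus strand) and at -74 in Xirp2 (chr2:67445752-67446051, plus strand), counted from the start.
Ttn: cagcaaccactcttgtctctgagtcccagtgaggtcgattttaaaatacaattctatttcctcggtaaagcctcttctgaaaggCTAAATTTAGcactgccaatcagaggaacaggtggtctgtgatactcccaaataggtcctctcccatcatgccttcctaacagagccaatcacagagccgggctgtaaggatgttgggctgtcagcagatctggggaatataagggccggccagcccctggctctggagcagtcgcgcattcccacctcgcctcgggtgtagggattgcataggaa
Speg: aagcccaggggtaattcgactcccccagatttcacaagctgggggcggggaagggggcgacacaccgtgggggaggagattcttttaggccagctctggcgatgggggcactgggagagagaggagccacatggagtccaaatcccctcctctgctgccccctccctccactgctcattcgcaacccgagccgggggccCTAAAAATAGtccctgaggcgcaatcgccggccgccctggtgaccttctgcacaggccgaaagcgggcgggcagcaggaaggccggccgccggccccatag
Xirp2: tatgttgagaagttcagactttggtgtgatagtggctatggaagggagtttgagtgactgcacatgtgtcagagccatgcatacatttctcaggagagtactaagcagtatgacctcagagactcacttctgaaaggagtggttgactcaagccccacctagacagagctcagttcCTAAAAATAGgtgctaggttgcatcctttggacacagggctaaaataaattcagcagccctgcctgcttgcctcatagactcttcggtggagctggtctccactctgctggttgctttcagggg
A match describes these letters and not a bound site. The 3 genes were picked for holding the motif and for library 3 shifts of opposite sign, so that combination is not a result. None of the 3 passed a test between AAV-GFP and AAV-RBM20.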

How the data were processed

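The authors made stranded libraries depleted of ribosomal RNA from whole TA muscle, aligned reads by HISAT2 to mm10, with gene counts by HTSeq (versions, annotation and strand setting not given in the sources used here). The deposited counts were raw whole numbers per gene. A second deposited table, those counts divided by 1 constant per library, was not used. Symbols (55141 identifiers), positions and merged exon lengths came from GENCODE on GRCm38. The members and gene lists were chosen with earlier results of these data known.

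Groups and replicate numbers came from the labels, which do not say that libraries of a group come from separate animals. The p-values therefore measure the spread between these libraries, which may be technical. In the study's protein blots, some mice gave a GFP muscle and an RBM20 muscle from opposite legs. Whether libraries of the AAV-GFP and AAV-RBM20 groups share animals in this way is not stated. Replicates of one group differed by a chi-square per degree of freedom of 15.1 to 545, over genes with at least 50 counts, so none was a copy of another. Counts were tested with edgeR 4.0.16 (filterByExpr, TMM, robust quasi-likelihood, R 4.3.3) without covariate and adjusted by Benjamini-Hochberg over 17222 genes, threshold 0.05. The SE was the size of the log2 fold change over the square root of F, and log2 CPM used a prior count of 2. Scripts were tested on simulated data. Deviations from group means over all genes correlated at 0.418, 0.201 and 0.484 between same-numbered libraries. All were above 0.1, the limit set for taking titles' numbers as pairs, and other pairings gave -0.422 to 0.216. Among those, AAV-GFP 2 with AAV-RBM20 1 (0.216) and AAV-GFP 1 with AAV-RBM20 2 (0.131) also exceeded 0.1. The correlations therefore do not tell numbers 1 and 2 apart. Only the titles number the AAV-RBM20 libraries 1 to 3, since the descriptions and count table number them on from AAV-GFP, so the block, the pairs and the libraries called 3 rest on the titles. Nebl, at 33 to 63 reads per library, had the least depth.

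The text names the 8 genes, Rbm20 and Arntl, the 2 genes at each end of the log2 fold changes in each comparison list, and the 5 genes most correlated with Ttn. Runx1 and the markers named singly were chosen after their values were seen. Alternatives were DESeq2 1.42.0 size factors and test, upper quartile factors, 2 other filters, members left out of library sizes, limma 3.58.1 voom, removal of a length trend, the replicate block and leaving out libraries.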

Additional observations from a re-analysis of the deposited data

How the results depend on the processing

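None of the 8 genes passed an adjusted p of 0.05 under any of the 20 alternatives, and 125 of 160 values kept their sign. Xirp2 (-0.32 to -0.058) and Cmya5 (-0.24 to -0.056) were negative in all 20. For the other 6 the sign turned, and the cause was not tested. Log2 fold changes became 0.027 for Nebl and 0.033 for Flnc with upper quartile factors, 0.009 and 0.018 with a filter of 1 CPM in 3 libraries, and 0.007 for Flnc with the members left out of library sizes. Neb and Flnc were 0.018 and 0.058 with the replicate block, 0.012 and 0.052 in DESeq2 with the block, and 0.011 and 0.047 in limma-voom. Ttn was -0.012 with the length trend removed, and Flnc 0.003 with block and trend. Neb was 0.067 and Nebl 0.109 without both libraries numbered 1, Flnc 0.079 without both numbered 2, and Ttn -0.068 without both numbered 3. Leaving out 1 library at a time gave Ttn -0.376 to 0.354, Neb -0.334 to 0.170, Nebl -0.451 to 0.267, Speg -0.344 to 0.159, Flnc -0.338 to 0.317 and Xirp1 -0.234 to 0.477. The median over the 8 then ranged from -0.284 to 0.165. Over all genes, where edgeR called 0 (1360 at an unadjusted p under 0.05), the count was 8 without a filter on low counts, 25 with the replicate block, 75 in DESeq2, 520 in DESeq2 with the block, 94 with block and length trend, and 690 without both libraries numbered 3. The block changed no member's call.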

Other observations

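Some genes of the comparison lists, chosen here after their values were seen, fell further than Ttn in AAV-GFP 3. Myom3, an M-band protein of slow and intermediate fibres, was at 60.4, 25.9 and 1.92 CPM in AAV-GFP 1, 2 and 3 and at 63.0, 26.6 and 16.6 CPM in AAV-RBM20. Csrp3, the muscle LIM protein of the Z-disc, was at 33.0, 9.54 and 1.10 CPM in AAV-GFP and at 23.9, 7.22 and 17.5 CPM in AAV-RBM20. Ankrd2, an ankyrin-repeat protein that binds titin, was at 56.4, 30.8 and 7.66 CPM in AAV-GFP and at 40.2, 19.0 and 30.9 CPM in AAV-RBM20. Myh2, from the fast limb muscle markers, was at 575.5, 444.8 and 31.6 CPM in AAV-GFP and at 791.7, 416.1 and 574.3 CPM in AAV-RBM20. For Csrp3, Ankrd2 and Myh2, library 3 of AAV-RBM20 was not the lowest of its group, unlike Ttn. Actc1 and Mybph also fell further than Ttn in AAV-GFP 3, by log2 shifts of -2.458 and -2.255.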
